A study of Mus musculus with 14 samples.

Results

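The 38 Hox genes described here belong to the 4 mammalian Hox clusters, HoxA on chromosome 6 with 10 genes, HoxB on chromosome 11 with 10, HoxC on chromosome 15 with 9 and HoxD on chromosome 2 with 9. They were chosen by symbol from the 21938 protein-coding genes of the mouse annotation GENCODE M21, and 1 further Hox symbol was not analysed here. To each gene were assigned all H3K4me3 peaks with any base within 1 kb of one of its transcription start sites (TSSs), which gave 36 of the 25357 peaks on chromosomes. To each cluster were assigned the putative enhancers within 500 kb, which gave 80 of 32965.

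H3K4me3, trimethylated lysine 4 of histone H3, was mapped by ChIP-seq in immortalised mouse embryo fibroblasts (iMEFs). All groups share the same cells, in which endogenous Ash2l, encoded by floxed alleles, was removed with a Cre-ER recombinase and a lentiviral construct supplied human ASH2L, a core subunit of the H3K4 methyltransferase complexes, fused to an FKBP12F36V degradation tag. There were 14 libraries, 2 of them inputs, 1 without dTAG and 1 after 16 h of dTAG, the compound that triggers degradation of the tagged protein. The 12 H3K4me3 libraries gave 2 replicates each without dTAG and after 30 min, 2 h, 4 h, 8 h and 16 h. The cells used for sequencing were a clonal line, so results describe that line.

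Hox genes encode homeodomain transcription factors that specify position along the head-to-tail axis and along the limbs. Within a cluster they lie in the order in which they are used along the body, from group 1 at the 3' end for anterior positions to group 13 at the 5' end for posterior positions, and genes with the same number in different clusters are paralogues. Fibroblasts are known to keep a Hox pattern that reflects the body site they came from. H3K4me3 marks the start sites of active genes and also of genes that are held ready for use, often at stretches rich in CpG dinucleotides.

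The peak list is a union over all libraries and holds positions only. A peak therefore shows that H3K4me3 was called somewhere in the series, and a missing peak that it was called nowhere. A listed peak can join calls from different libraries, so the widths and coverage below need not hold in any single library. No level, replicate error or change with dTAG can be read from the lists used here for any Hox gene, neither list gives the depth of the libraries, and all comparisons below are descriptions of positions with no test. As a check of the cell type, 10 of 12 fibroblast marker genes had a peak, Dcn and Lum being without one, beside 59.1% of all protein-coding genes. The markers were not matched for the CpG content of their starts, so their counts are a weak check. Of 16 markers of other cell types, 3 had a peak, namely Epcam with 724 bp, Cdh1 with 602 bp and Tek with 435 bp, and Ptprc, Sox10, Myod1, Pou5f1 and Nanog had 0 peaks.

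The first question was which Hox genes carried H3K4me3. The clusters fell into a pair with the mark at every gene analysed and a pair with the mark at none. All 10 analysed HoxA genes and all 9 HoxD genes had a peak, and 0 of 10 HoxB and 0 of 9 HoxC genes had one. Over the 4 clusters this gave 19 of 38 genes, or 50.0% (Wilson 95% confidence interval 34.8 to 65.2%, which treats genes as independent although neighbours share peaks), beside 59.1% of all 21938 protein-coding genes. The genes of each cluster were all marked or all unmarked, so the interval cannot judge agreement with this 59.1%. No single cluster was near that share. That share covers genes of any CpG content, and genes with CpG-rich starts are compared below.

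**Figure D1:**
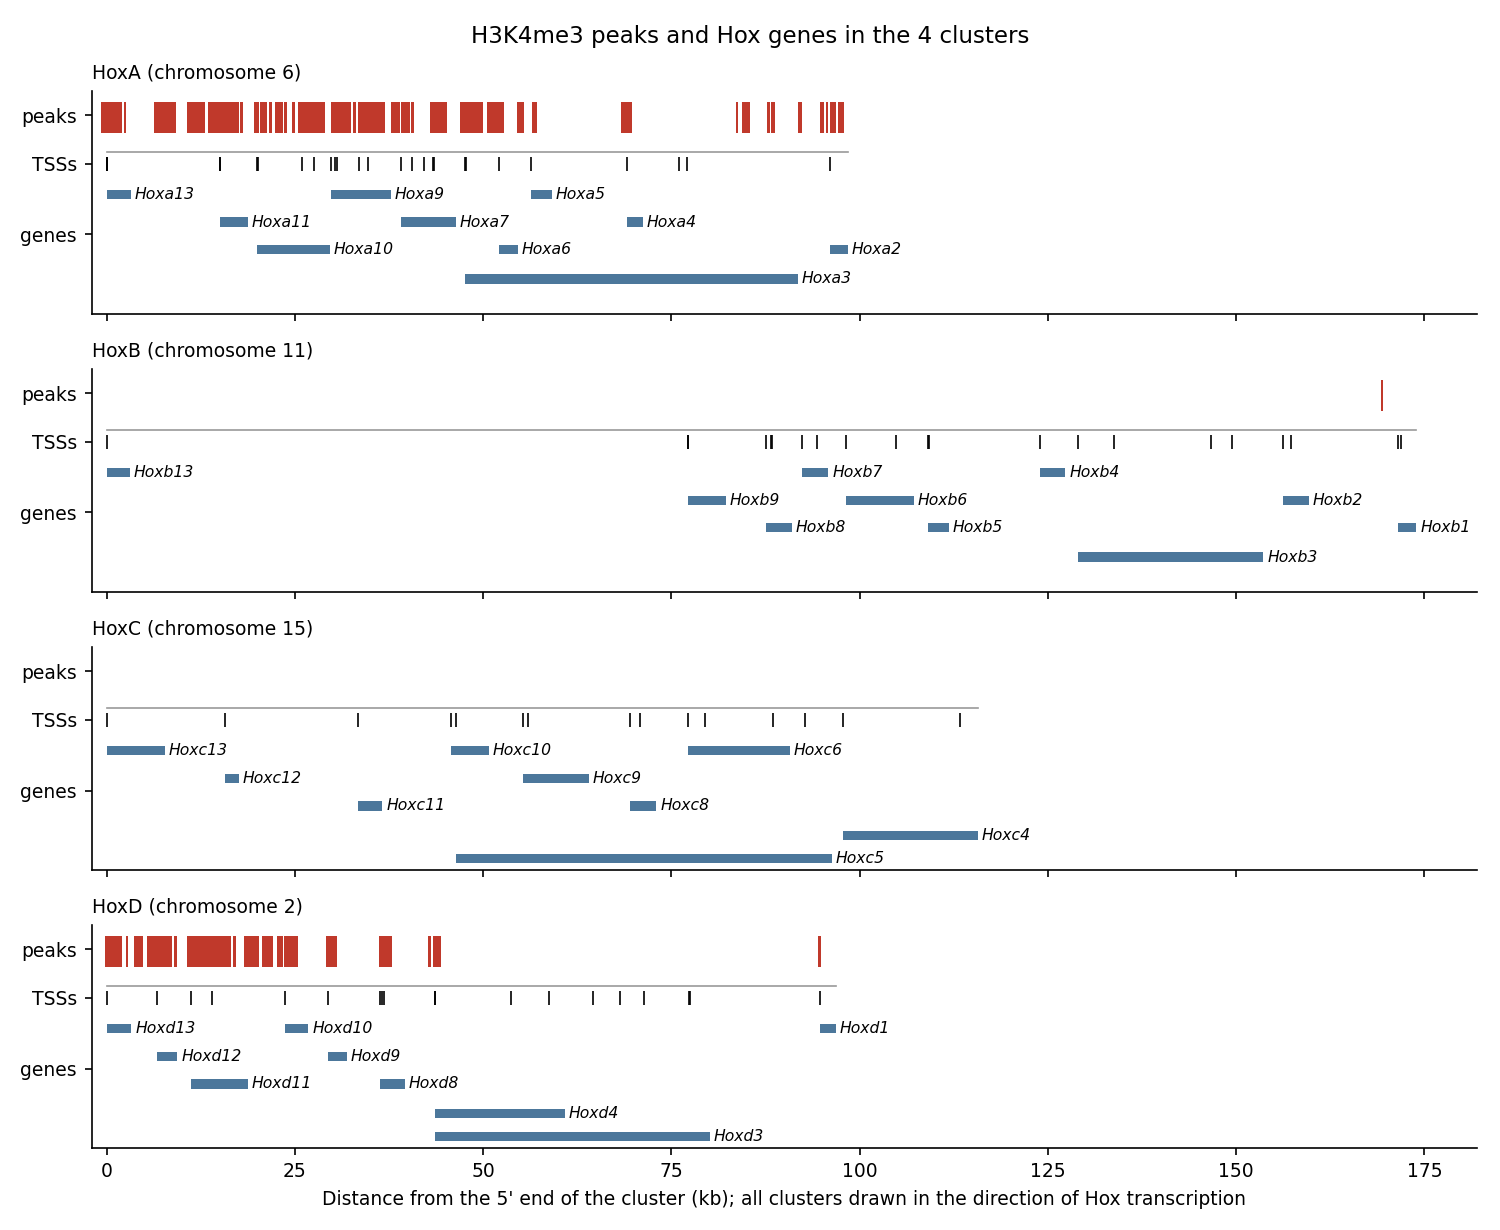
H3K4me3 peaks (red), TSSs (black ticks) and gene bodies (blue) along the 4 Hox clusters, all drawn from the 5' end in the direction of Hox transcription on 1 scale in kb. HoxA holds 37 peaks and HoxD 16, which cover a larger share of bases toward the 5' end of both, whereas HoxB holds 1 and HoxC 0.

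Sequences at start sites of the marked and unmarked clusters are shown next, since H3K4me3 often lies at CpG-rich DNA. Each is the RefSeq promoter of build GRCm38.p6, from 250 bases before to 50 after the start, on the coding strand, with each CpG in capitals. Hoxa11 (chr6:52245761-52246060, minus strand) and Hoxd11 (chr2:74682073-74682372, plus strand) have the widest peaks of their clusters. Hoxb1 (chr11:96365508-96365807, plus strand) is the HoxB gene nearest to a peak, and Hoxc4 (chr15:103034145-103034444, plus strand) was the HoxC gene with an entry, chosen after the values were seen.
Hoxa11: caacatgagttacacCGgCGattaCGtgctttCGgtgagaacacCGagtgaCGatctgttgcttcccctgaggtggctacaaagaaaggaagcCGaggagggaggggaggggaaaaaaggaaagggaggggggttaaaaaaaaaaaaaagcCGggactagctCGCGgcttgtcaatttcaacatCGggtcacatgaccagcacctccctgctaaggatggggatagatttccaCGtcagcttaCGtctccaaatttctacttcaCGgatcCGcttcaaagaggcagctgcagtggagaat
Hoxd11: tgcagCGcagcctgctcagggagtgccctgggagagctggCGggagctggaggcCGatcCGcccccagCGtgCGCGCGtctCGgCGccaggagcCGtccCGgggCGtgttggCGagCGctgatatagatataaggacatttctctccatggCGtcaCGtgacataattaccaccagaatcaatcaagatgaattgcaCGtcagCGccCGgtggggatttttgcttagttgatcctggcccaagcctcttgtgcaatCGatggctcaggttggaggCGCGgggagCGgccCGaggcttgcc
Hoxb1: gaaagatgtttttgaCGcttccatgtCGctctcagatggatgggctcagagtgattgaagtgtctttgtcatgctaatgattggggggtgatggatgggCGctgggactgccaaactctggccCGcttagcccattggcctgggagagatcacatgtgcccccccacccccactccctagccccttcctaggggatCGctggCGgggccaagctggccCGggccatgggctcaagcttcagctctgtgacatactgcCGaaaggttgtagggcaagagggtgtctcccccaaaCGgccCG
Hoxc4: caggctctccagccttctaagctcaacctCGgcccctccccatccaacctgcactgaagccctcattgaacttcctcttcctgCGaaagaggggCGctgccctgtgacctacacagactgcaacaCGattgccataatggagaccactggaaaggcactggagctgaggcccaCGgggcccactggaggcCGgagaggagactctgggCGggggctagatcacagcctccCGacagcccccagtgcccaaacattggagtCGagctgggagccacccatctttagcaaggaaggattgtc
The Hoxa11 promoter holds 15 CpGs and the Hoxd11 promoter 25, and peaks cover all 300 bases of both. The Hoxb1 promoter holds 10 CpGs and the Hoxc4 promoter 9, and peaks cover 0 bases of either. Among all 32851 RefSeq promoters of this length the median was 7 CpGs, so the unmarked promoters printed here lie above it as well, with fewer CpGs in 56.5% of promoters for Hoxb1 and 54.2% for Hoxc4. For Hoxa11 this share was 65.4% and for Hoxd11 81.6%. Marked genes did not always have more CpGs, since a second Hoxd11 promoter, also wholly covered by a peak, held 4, and the promoters of Hoxa9, Hoxd8 and Hoxa2 held 4, 6 and 9. Promoters of 22 of the 38 genes were matched in the RefSeq table, with 24 start sites in all. Of these, 4 held TATAAA on either strand (16.7%, beside 13.6% of all promoters), and none of the 4 printed did.

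CpG content was then measured in the same way at all genes, in the 1001 bp centred on each GENCODE TSS, with the CpG-richest TSS taken for each gene. The ratio of observed to expected CpGs compares the CpG count with that given by the C and G content alone. Its median was 0.774 in HoxA, 0.802 in HoxD, 0.686 in HoxB and 0.651 in HoxC, beside 0.627 over all protein-coding genes. The ranges overlapped, from 0.629 to 0.996 in HoxA and 0.583 to 1.00 in HoxD against 0.399 to 0.877 in HoxB and 0.412 to 0.891 in HoxC.

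A TSS was called CpG-rich with a ratio over 0.6 and a GC content over 50%. All 10 analysed HoxA genes and 8 of 9 HoxD genes had such a TSS, Hoxd12 (0.583) being the exception. In HoxB, 5 of 10 genes had one, namely Hoxb5, Hoxb6, Hoxb7, Hoxb8 and Hoxb9. In HoxC, 5 of 9 had one, namely Hoxc8, Hoxc9, Hoxc11, Hoxc12 and Hoxc13. Of all 11149 protein-coding genes with a CpG-rich TSS, 93.0% had a peak. HoxA and HoxD, marked at every gene analysed, thus lay near the share for such genes. The 10 HoxB and HoxC genes with a CpG-rich TSS were among the 783 without a peak. CpG-poor starts in HoxB lay at its outer genes, with 0.549 at Hoxb1, 0.399 at Hoxb2, 0.572 at Hoxb3, 0.494 at Hoxb4 and 0.450 at Hoxb13. The part of CpG content in the difference between clusters was not tested.

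**Figure D2:**
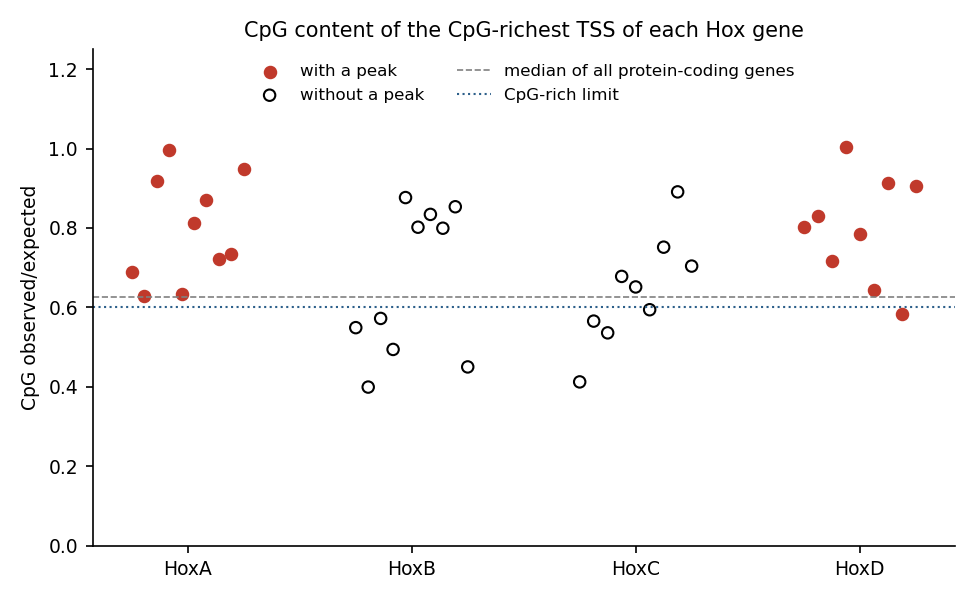
Ratio of observed to expected CpGs in the 1001 bp around the CpG-richest TSS of each Hox gene, ordered by paralogue group within each cluster. Filled points have an H3K4me3 peak and open points none, the dashed line is the median of all protein-coding genes (0.627) and the dotted line the CpG-rich limit of 0.6, and open points reach 0.891 while filled points start at 0.583.

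The marked genes were then described in order along the clusters. Hoxa13, the gene at the 5' end of HoxA and needed for the digits and the urogenital tract, lies at chr6:52257694-52260880. Its 3 annotated TSSs were all inside 1 peak of 2733 bp. Hoxa11, which acts in the middle segment of the limb and in the uterus, had both TSSs inside a peak of 4204 bp at chr6:52243250-52247453, wider than the widest peak of 99.5% of the 12966 protein-coding genes with a peak. Over those genes the widest peak had a median of 1255 bp, with quartiles of 908 and 1710 bp.

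Hoxa10 and Hoxa9, regulators of the trunk skeleton and of blood progenitors, shared a peak of 3606 bp at chr6:52231872-52235477. Each had 4 peaks, and all 4 annotated TSSs of Hoxa10 and all 5 of Hoxa9 were covered. Hoxa9 also had peaks of 3597 and 2634 bp. Along the gene body, which includes introns, peaks covered 82.2% of Hoxa9, 72.3% of Hoxa10, 80.5% of Hoxa11 and 72.9% of Hoxa13. The 5' HoxA genes were thus marked along most of their length. Over all protein-coding genes with a peak, of any length, the median was 4.15%, and 2.14% of them reached 70%. Gene length was not matched, and a peak covers a larger share of a short gene. The 4 bodies ran from 3187 bp at Hoxa13 to 9658 bp at Hoxa10.

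Farther toward the 3' end of HoxA most genes had a narrower widest peak. Hoxa7 had 6 peaks, the widest of 1234 bp, near its 5 TSSs. Hoxa6 had its TSS inside a peak of 2175 bp, Hoxa4 inside one of 723 bp. The TSSs of Hoxa5 and Hoxa2 were not covered but lay in gaps between peaks, 235 bp from a peak of 605 bp at Hoxa5 and 21 bp from a peak of 777 bp at Hoxa2. Both genes are known for roles toward the head end, Hoxa5 in the neck and lung and Hoxa2 in the hindbrain and the second branchial arch. Peaks covered 65.9% of the Hoxa2 body and 48.3% of Hoxa7, and 21.3 to 29.7% of Hoxa3, Hoxa4, Hoxa5 and Hoxa6. Body coverage thus did not fall steadily toward the 3' end.

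Hoxa3, which acts in the throat region and its glands, was marked at distant starts only. The annotation gives it 4 TSSs. Those at positions 52213115 and 52213336, between Hoxa6 and Hoxa7, lay inside a peak of 3026 bp. Those at 52183855 and 52184874, near the coding exons, were 6493 and 6262 bp from the nearest peak. The stretch of 13.8 kb between chr6:52177363 and 52191135 that holds them was the longest without a peak in HoxA. Its assignment therefore rests on a start that adjoins other marked genes.

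In HoxD the same order was seen. Hoxd13, needed for the digits, had its TSS inside a peak of 2177 bp, and Hoxd12 inside one of 3305 bp. Hoxd11, which acts with Hoxa11 in the forearm, had both TSSs inside a peak of 5861 bp at chr2:74678979-74684839, the widest at any Hox gene. Only 6 of the 12966 genes with a peak had a wider one in the union list. Hoxd10, Hoxd9 and Hoxd8 followed with widest peaks of 1847, 1435 and 1657 bp. Peaks covered 89.7% of the Hoxd12 body, 82.0% of Hoxd11 and 69.7% of Hoxd13, against 57.5% of Hoxd10, 47.9% of Hoxd9 and 45.9% of Hoxd8.

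The 3' part of HoxD was nearly without peaks. Hoxd3 and Hoxd4 were both assigned the same peaks, of 1090 and 435 bp, at a shared far upstream start (positions 74711927 and 74711929). The other 5 TSSs of Hoxd3 were 17005 to 23815 bp from a peak, and the other 2 of Hoxd4, at 74721978 and 74727074, were 9278 and 14374 bp from one. With the starts of protein-coding transcripts alone, or with RefSeq starts, Hoxd4 had no peak. Hoxd1, the last gene, had 1 peak of 462 bp over its TSS, and 4.89% of genes with a peak had a narrower widest peak. Between chr2:74712701 and 74762726, a stretch of 50.0 kb, no peak was listed.

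The order along the clusters was summarised by paralogue group, with a cut between groups 8 and 9. This cut was not planned and was set with the peak widths known, so the contrast is partly built in. The 9 marked genes of groups 9 to 13 had a widest peak of median 3305 bp (1435 to 5861 bp), and 7 of 9 reached 2 kb. The 10 marked genes of groups 1 to 8 had a median of 1090 bp (462 to 3026 bp), and 2 of 10 reached 2 kb, Hoxa3 and Hoxa6. Over all protein-coding genes with a peak, 16.0% reached 2 kb. None of the 9 fell below the all-gene median of 1255 bp, whereas 7 of the 10 did. The ranges overlapped, and genes that share a peak are not independent. Over all 19 marked genes the median was 1847 bp.

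**Figure D3:**
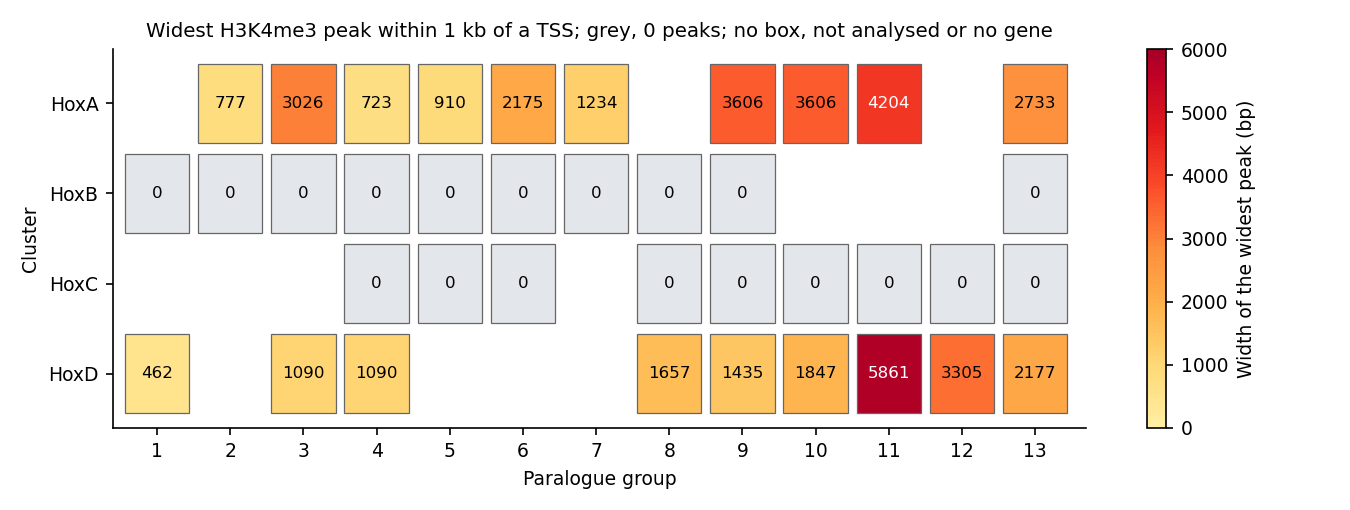
Width in bp of the widest H3K4me3 peak within 1 kb of a TSS for each of the 38 Hox genes, by cluster (rows) and paralogue group (columns). Grey boxes with 0 are genes without a peak, and the widest peaks stand at groups 9 to 13 of HoxA and HoxD, up to 5861 bp at Hoxd11.

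With the same cut, set after the values were seen, the same order appeared in the share of bases covered. In HoxA, the 37.8 kb from Hoxa13 to the end of Hoxa9 were covered to 69.7%, and the remaining 60.7 kb to 30.1%. The fall in HoxA was not even, with 33.2% in the 10 kb at the 3' end and 1.97% from 30 to 40 kb. In HoxD, the 31.9 kb from Hoxd13 to the end of Hoxd9 were covered to 66.0%, and the remaining 64.9 kb to 5.61%. The clusters were thus close to each other at groups 9 to 13 and differed more at groups 1 to 8.

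Paralogues were compared across clusters, since they encode the most alike proteins. In each of the 13 groups at least 1 gene was marked and at least 1 was not, which follows from the split between clusters. Groups 3, 4, 9, 10, 11 and 13 had 2 marked genes each, by the same split the HoxA and HoxD genes. In group 9, all 4 clusters have a gene, and Hoxa9 and Hoxd9 were marked with 3606 and 1435 bp while Hoxb9 and Hoxc9 were 92.0 and 60.2 kb from the nearest peak. In group 13, Hoxa13 and Hoxd13 had 2733 and 2177 bp while Hoxb13 was 69.4 kb and Hoxc13 4.88 kb from a peak. Group 4 gave 723 bp at Hoxa4 and 1090 bp at the upstream Hoxd4 start, and no peak at Hoxb4 or Hoxc4.

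The spans were next compared with the rest of the genome. HoxA, from the first to the last base of its 10 genes at chr6:52162417-52260880, held 37 peaks in 98.5 kb and was covered to 45.3%. HoxD, at chr2:74668310-74765142, held 16 peaks in 96.8 kb and was covered to 25.5%. Over all chromosomes the coverage was 0.817%. Windows of the same length were laid at steps of 10 kb over chromosomes 1 to 19 and X, leaving out those that touch a Hox cluster. None of 263103 windows was covered as much as HoxA, the highest reaching 22.6%, and none of 263107 as much as HoxD, the highest reaching 22.9%. The windows overlap each other and were not matched for genes, and their 99th percentile was 7.62% for the HoxA length.

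Within HoxA, 43.8% of the peak bases lay in annotated exons, 45.0% in introns and 11.2% outside genes. Within HoxD these shares were 44.3, 42.1 and 13.6%. Of the 37 HoxA peaks, 24 were within 1 kb of a TSS of an analysed Hox gene, and of the 16 HoxD peaks 10 were. The others lay between Hox genes or over gene bodies, such as peaks of 2921 and 2461 bp between Hoxa13 and Hoxa11.

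HoxB and HoxC stood at the other end. HoxB, at chr11:96194316-96368256, held 1 peak of 262 bp in 174 kb, a coverage of 0.151%. That peak, at chr11:96363507-96363768, lay between Hoxb2 and Hoxb1, 1984 bp from the nearer Hoxb1 TSS. Hoxb1, known for hindbrain patterning, was therefore the only gene that a window of 3 kb added. HoxC, at chr15:102921103-103036852, held 0 peaks in 116 kb. Windows without a peak were common, with 47.8% of windows of the HoxB length and 57.1% of the HoxC length. These windows were not matched for genes, whereas the analysed genes have 21 TSSs in HoxB and 15 in HoxC. They therefore cannot show whether a span with so many starts and no peak is unusual.

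**Figure D4:**
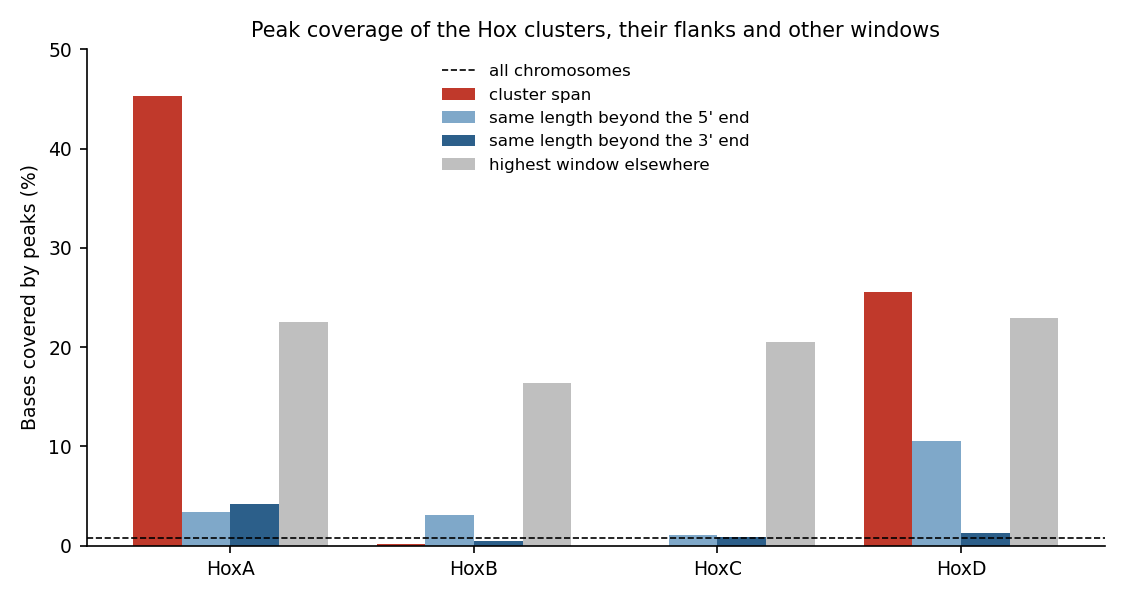
Percent of bases covered by H3K4me3 peaks in each Hox cluster (red), in stretches of the same length beyond its 5' end (light blue) and 3' end (dark blue), and in the most covered window of that length elsewhere (grey). The dashed line is the 0.817% of all chromosomes, and HoxA (45.3%) and HoxD (25.5%) lie above every window elsewhere while HoxB (0.151%) and HoxC (0) lie below the line.

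The distance to the nearest peak showed how far the unmarked genes lay from any mark. Over the 19 HoxB and HoxC genes it ran from 1.98 kb at Hoxb1 to 92.0 kb at Hoxb9, with a median of 50.6 kb. In HoxB it fell along the cluster from Hoxb9 through 80.8 kb at Hoxb8, 60.0 kb at Hoxb5, 45.2 kb at Hoxb4 and 19.7 kb at Hoxb3 to 11.9 kb at Hoxb2. These HoxB distances all end at the same peak of 262 bp, so the fall only follows gene order. In HoxC it was lowest at the outer genes, with 4.88 kb at Hoxc13, 20.5 kb at Hoxc12 and 30.0 kb at Hoxc4, and highest at Hoxc8 with 72.5 kb. The HoxC distances end at a peak of 310 bp on the Hoxc13 side or of 200 bp on the Hoxc4 side. The shortest width in the list is 200 bp. The other HoxC genes (Hoxc5, Hoxc6, Hoxc9, Hoxc10 and Hoxc11) lay 38.2 to 60.2 kb from a peak, and Hoxb6 and Hoxb7 64.3 and 74.8 kb. The stretch without a peak that holds 9 HoxB genes was 239 kb long, and the stretch that holds all HoxC genes 148 kb.

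Neighbouring genes were then counted, beside the 59.1% of all protein-coding genes with a peak. Within 500 kb of HoxB, 12 of 18 other protein-coding genes had one, among them Igf2bp1, which encodes an RNA-binding protein, with 3662 bp, and Nfe2l1, a stress-response transcription factor, with 4085 bp. Within 500 kb of HoxC, 16 of 23 had one, among them Itga5, the fibronectin receptor subunit, with 3475 bp, and Cbx5, which encodes the heterochromatin protein HP1α, with 864 bp. These genes were picked from the neighbours after their values were seen. Of the neighbours within 100 kb, Ttll6 and Calcoco2 beside HoxB had no peak and Skap1 had 1 of 291 bp. None was annotated within 100 kb of HoxC.

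Beside the marked clusters, Evx1, the homeobox gene 52.6 kb beyond the 5' end of HoxA, had a peak of 747 bp. Its counterpart Evx2, 8.75 kb beyond Hoxd13, had a peak of 3159 bp. From Evx2 to Hoxd13 there were 7 peaks, and the stretch of cluster length beyond the 5' end of HoxD was covered to 10.5%. Beyond the 3' end the coverage was 1.30%. For HoxA the flanks had 3.37% at the 5' end and 4.19% at the 3' end. The other HoxD neighbours, Lnpk (984 bp) and Mtx2 (1044 bp), had peaks too. The overlapping gene model Gm28308 in HoxA shared the 3026 bp peak of Hoxa3. 5730596B20Rik, on the opposite strand in HoxA, had 2 peaks, of 1154 and 343 bp, that were assigned to no analysed Hox gene, and Gm28230 in HoxD had none.

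The clusters also hold noncoding genes, several of which are transcribed from the opposite strand or host microRNAs. In HoxA 12 of 13 noncoding genes with a TSS in the span had a peak, and in HoxD 4 of 9. In HoxB this was 0 of 9 and in HoxC 0 of 7. Over all 33475 genes of the annotation that are not protein-coding, pseudogenes included, the share was 9.41%. Without the entries of the type misc_RNA, 6 of which lie in HoxA, the counts were 6 of 7 in HoxA, 4 of 9 in HoxD, 0 of 7 in HoxB and 0 of 3 in HoxC, beside 9.37%. The HoxA genes with a peak were Hoxaas2 (777 bp), Gm15050 (491 bp), Hoxaas3 (1154 bp), Hoxa11os (4204 bp, the Hoxa11 peak), Mir196b, 9530018H14Rik (308 bp) and 6 short RNA entries inside or beside the Hoxa11 peak or the next one, Gm28032, Gm27492, Gm27695, Gm27817, Gm27454 and Gm27543. Those of HoxD were Gm28309 (5861 bp), Gm28793 (1435 bp), Hoxd3os1 (1090 bp) and Haglr (462 bp), which start beside Hoxd11, Hoxd9, Hoxd3 and Hoxd1. Most of these share the peak of a Hox gene, and the list cannot assign it to either strand.

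Some long noncoding RNAs with known roles in Hox regulation differed in the same way as their clusters. Hottip, which starts beyond Hoxa13 just outside the span, had 2 peaks, the wider of 849 bp. Hotair, the HoxC antisense transcript between Hoxc11 and Hoxc12, had none and was 31.5 kb from the nearest. Both were chosen by their known roles after the values were seen. In HoxB, Hoxb3os and Hoxb5os were 8.82 and 56.6 kb from a peak.

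MicroRNA genes of the miR-10 and miR-196 families are conserved parts of the clusters and repress Hox transcripts among other targets. Of 7 microRNA genes in the spans, 6 were matched in the RefSeq table, all but Gm44463. Their main mature sequences are shown with the seed (bases 2 to 8) in capitals. Those of the miR-196 and miR-10 families stand in pairs with the same seed, because family members lie in clusters with and without H3K4me3. The seed of miR-615-3p is shared by no other sequence shown.
mmu-miR-196b-5p: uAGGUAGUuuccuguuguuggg
mmu-miR-196a-5p: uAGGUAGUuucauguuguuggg
mmu-miR-10b-5p: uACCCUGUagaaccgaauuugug
mmu-miR-10a-5p: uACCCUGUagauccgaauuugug
mmu-miR-615-3p: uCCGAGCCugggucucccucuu
From the 5' end, miR-196a-5p and miR-196b-5p differ by A12C, and miR-10a-5p and miR-10b-5p by U12A, in both cases outside the seed. Mir196b in HoxA lay whole inside a peak of 2634 bp within the annotated Hoxa9 gene. Mir196a-1 in HoxB and Mir196a-2 in HoxC, which give the same mature sequence, were 98.3 and 57.1 kb from a peak. Mir10b in HoxD was 13.4 kb from a peak, in the unmarked stretch beside Hoxd4, and Mir10a in HoxB 46.3 kb. Mir615, within the Hoxc5 gene, was 49.5 kb from a peak, and Gm44463 in HoxD 2.23 kb. Thus 1 of 7 microRNA genes had a peak within 1 kb. MicroRNAs are processed from longer transcripts whose starts can lie elsewhere, so this says nothing of their expression.

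Putative enhancers, called by the authors in control cells from H3K4me1, H3K27ac and accessible chromatin, gave a further view of the 4 neighbourhoods. Within 500 kb there were 34 at HoxA, 20 at HoxB, 16 at HoxC and 10 at HoxD. These are 31.0, 17.0, 14.3 and 9.12 per Mb, beside 12.1 per Mb over all chromosomes. Among windows of the same length on the same chromosome, 94.3% held fewer than the HoxA window, 58.8% fewer than HoxB, 40.1% fewer than HoxC and 39.8% fewer than HoxD. The density over 500 kb thus did not separate the marked from the unmarked clusters.

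The enhancers nearest to the clusters did follow the peaks. Within 100 kb there were 11 at HoxA and 6 at HoxD, against 2 at HoxB and 1 at HoxC. Inside the spans HoxA held 4 and HoxD 2, and HoxB and HoxC held 0. The 4 in HoxA were at chr6:52168525-52168919 between Hoxa2 and Hoxa3, chr6:52221359-52222971 at a Hoxa7 start, chr6:52251869-52254406 between Hoxa11 and Hoxa13, and chr6:52259001-52260324 in Hoxa13. The 2 in HoxD, at chr2:74687648-74688119 and chr2:74689185-74690242, lay between Hoxd11 and Hoxd10. All 6 overlapped an H3K4me3 peak. The regions at chr6:52168525-52168919 and chr6:52221359-52222971 have their middle 212 and 311 bp from a TSS of the annotation used here. They thus lie within the 1 kb used to assign promoter peaks. Over the 4 neighbourhoods, 8 of 34 enhancers at HoxA, 2 of 20 at HoxB, 0 of 16 at HoxC and 6 of 10 at HoxD overlapped a peak, beside 7.52% of all enhancers.

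The sides of the clusters were unequal. At HoxD, 8 enhancers lay beyond the 5' end and 0 within 500 kb of the 3' end, the Mtx2 side. The nearest, 4.63 kb from Hoxd13, was 1 of 4 on that side that overlapped a peak. At HoxA, 18 lay beyond the 5' end and 12 beyond the 3' end. Skap2, beyond the 3' end, and Hibadh, beyond the 5' end, each held 5 of these. At HoxB, 4 lay beyond the 5' end and 16 beyond the 3' end, 8 of them in Skap1. At HoxC, 9 lay beyond the 5' end, none nearer than 80.6 kb, and 7 beyond the 3' end, 4 of them in Cbx5.

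**Figure D5:**
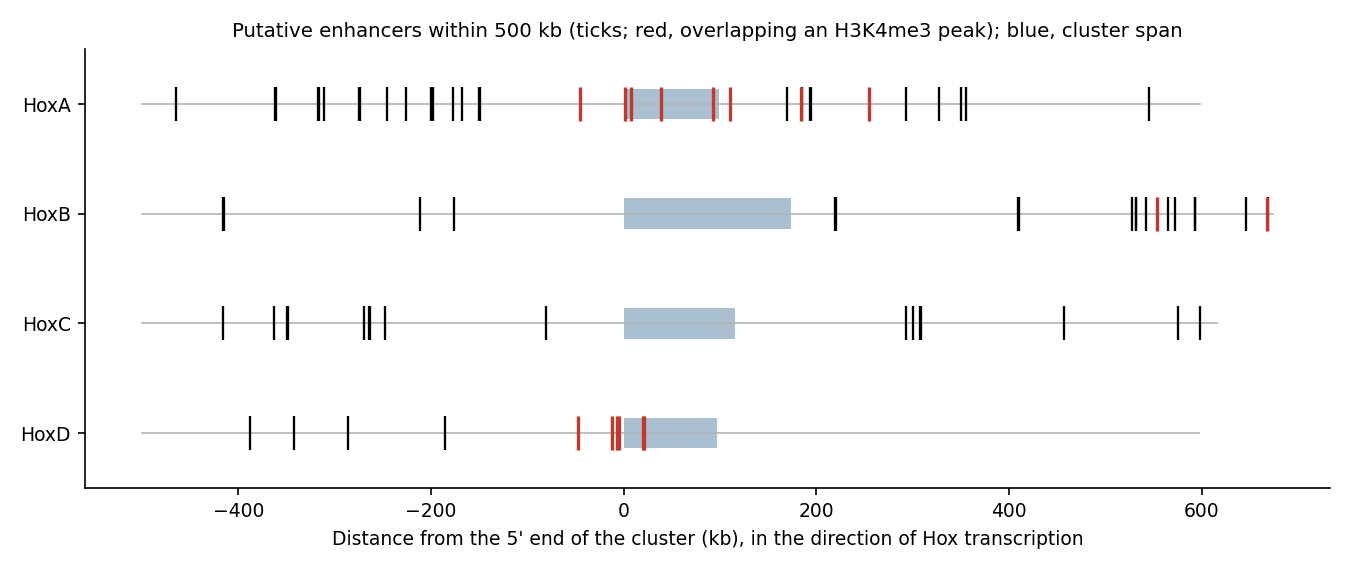
Putative enhancers (ticks) within 500 kb of each Hox cluster (blue box), in kb from the 5' end of the cluster in the direction of Hox transcription. Red ticks overlap an H3K4me3 peak, and enhancers lie inside the HoxA (4) and HoxD (2) spans only, with 0 beyond the 3' end of HoxD.

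Hox proteins bind DNA with cofactors of the TALE class of homeodomain proteins, which were looked up as a list. All 8 reported here (Meis1, Meis2, Meis3, Pbx2, Pbx3, Pbx4, Pknox1 and Pknox2) had a peak, with a median widest peak of 2129 bp, from 1060 bp at Pbx4 to 2673 bp at Pbx2. The ParaHox genes, evolutionary sisters of the Hox genes, gave the opposite picture. None of the 6 (Cdx1, Cdx2, Cdx4, Gsx1, Gsx2 and Pdx1) had a peak, although 4 had a CpG-rich TSS. The cofactors were thus marked at every gene reported, beside 59.1% of all protein-coding genes. Of the 8, 6 had a CpG-rich TSS, and 93.0% of all protein-coding genes with one had a peak.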

How the data were processed

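H3K4me3 ChIP-seq libraries were made by the authors from iMEF cells with and without dTAG. According to the authors' methods, Trim Galore was used for trimming, BWA for alignment to mm10, SAMtools for filtering, Picard to merge replicates and MACS2 for narrow peaks. The deposited lists hold coordinates alone, with 0 columns of values per sample. The peak list joins all samples, and the enhancer list leaves out regions within 1 kb of TSSs by the authors' annotation. The depth that each library reached is not in the files used here, and the authors' methods give only a planned minimum.

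Peak starts were read as counting from 0 (shortest end minus start 200) and enhancer starts as counting from 1 (most frequent difference 199), and all positions are given from 1. The reference GRCm38.p6 is the same build. TSSs were the 5' ends of all GENCODE M21 transcripts on chromosomes 1 to 19, X and Y. Overlaps, coverage and CpG counts were computed with Python 3.11.15, NumPy 2.4.6, pandas 2.3.3, SciPy 1.17.1, matplotlib 3.10.9 and samtools 1.23.1. Interval functions were tested on simulated positions and differed from brute force in 0 of 1000 queries. Enhancers of the list were counted by any overlap. No samples were compared and no test was made, because the files used here hold no value per sample, and the changes between time points were not analysed here. Wilson intervals cover counting error only.

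The genes, lists and alternatives (other TSS sets, windows, peak widths and distances) were chosen with earlier results of these data known. All analysed Hox genes were named, with the noncoding genes in the spans that had a peak and the reported cofactors. Protein-coding neighbours were all named within 100 kb and in part beyond it, and noncoding genes without a peak in part. Any gene picked after its values were seen is marked as such. The rule for printed promoters asked for a marked and an unmarked gene in the same cluster. No cluster held both, so marked genes were taken from HoxA and HoxD and unmarked ones from HoxB and HoxC. Of the genes on the fixed lists, 4 are not reported here and were left out of the list counts.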

Additional observations from a re-analysis of the deposited data

How the results depend on the processing

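The split between clusters was recomputed under 9 other settings. The count of Hox genes with a peak ran from 17 to 20 of 38. A window of 0 bp left out Hoxa2 and Hoxa5, protein-coding or RefSeq starts left out Hoxd4, peaks of at least 500 bp left out Hoxd1, and a window of 3 kb added Hoxb1, so that HoxB went from 0 to 1 gene. HoxC stayed at 0 in all 9. Merging peaks at most 1 kb apart raised the median widest peak from 1847 to 5804 bp, since neighbouring peaks are joined by construction. The share of the 4 spans covered was 14.3%, and it moved to 12.95% with peaks of at least 500 bp and 16.6% with merged peaks. Widening the spans by 10 kb gave 14.4% over all 4 and 0.228% at HoxC, through 1 peak beyond Hoxc13.

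Enhancer density depended on distance. Within 100 kb it was 5.35 per Mb at HoxB, 3.17 at HoxC and 20.2 at HoxD, and within 250 kb it was 8.90 at HoxB, 9.74 at HoxC and 11.7 at HoxD. At both distances HoxD was above HoxB and HoxC, the reverse of their order at 500 kb and 1 Mb, and HoxA was highest at all 4 distances. With only regions centred over 1 kb from every TSS, the density within 500 kb was 28.2 per Mb at HoxA, 14.5 at HoxB, 11.7 at HoxC and 9.12 at HoxD. In all, 80 of 90 recomputed values stayed within 1.5 times of the main value or, for the share over all spans, within its interval. No paired analysis was possible because the files give coordinates alone and no test was made. The authors' TSS set can differ from the one used here, a union list cannot show when or in which library a peak was called, and weak H3K4me3 below the peak caller's threshold cannot be seen.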

Other observations

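Outside the Hox clusters, 69 other homeobox transcription factor genes were looked up from a list drawn from general knowledge of the families. Of these, 36 (52.2%) had a peak within 1 kb of a TSS, near the 59.1% of all protein-coding genes. Their widest peak had a median of 1334 bp, from 359 to 3781 bp, beside 1255 bp over all genes with a peak. Emx2 (3781 bp), Six4 (3324 bp), Dlx2 (3293 bp), Irx3 (3115 bp) and Prrx1 (3018 bp) had the widest of those reported. Prrx1 is known for limb and connective tissue development, and Six4 for muscle precursors.

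Like HoxB and HoxC, the list held genes with a CpG-rich TSS and no peak. Of its 63 genes with a CpG-rich TSS, 32 had no peak, beside 7.02% of all such genes. Of the 28 Hox genes with such a TSS, 10 had no peak, and these were all in HoxB and HoxC. Together with 4 ParaHox genes and 10 HoxB and HoxC genes, homeobox genes of these lists made up 46 of the 783 protein-coding genes with a CpG-rich TSS and no peak. Among the 11149 protein-coding genes with a CpG-rich TSS, these lists held 63 other homeobox, 4 ParaHox and 28 Hox genes. These counts are descriptions with no test.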
